A study of Nasturtium officinale with 24 samples.

Results

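The comparison set the second day of complete submergence against the first in stems of Nasturtium officinale (watercress), a relative of cabbage that grows in and beside streams. The 6 libraries from submerged stems, 3 from day 1 and 3 from day 2, were taken by their sample labels out of 24 libraries in all. The 6 stem libraries kept in air for the same 1 or 2 days measured drift in the controls, and the 6 libraries of submerged petioles (leaf stalks) were the most similar comparison with no library in common.

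All groups came from plants about 3 weeks old that were grown at 23 °C in short days (8 h light, 16 h dark, 100 µmol photons per m2 and s). Both treatments took place in plastic tubs, filled with water or not, and no genotype, hormone or drug set the groups apart. Each library pooled 5 plants, so differences between single plants cannot be seen, and plants of the second day were also a day older than those of the first. Tissue was bulk, so fewer cells of a type and less RNA per cell cannot be told apart.

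Gases move slowly in water, so a submerged shoot traps the ethylene it makes and runs short of oxygen and carbon dioxide. Flooded plants are known to answer either by saving energy or by elongating until the shoot reaches air, and both involve wide changes in messenger RNA. Set against the first day, the second shows which transcript levels had come back and which had moved on.

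Transcripts were measured as contigs of an assembled transcriptome, 201 to 12603 bases long, to which kallisto had assigned read counts. The files do not pair the contig identifiers with gene names, so no gene, pathway or cell type marker is named and the tissue label could not be checked against its markers. Several contigs can belong to 1 gene, similar contigs share reads, and strand was not kept, so counts of contigs are not counts of genes. Submerged stem libraries held 31260755 to 48928331 estimated counts on day 1 and 24855399 to 34637732 on day 2. Over all 12 stem libraries, air included, a count of 3 was worth 0.063 to 0.147 CPM, a unit that scales counts to a common library total.

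In a principal component analysis of the 12 stem libraries the first component held 36.5% of the variance and separated water from air. Along it the submerged libraries of day 1 (-113.3 to -99.9) and day 2 (-117.8 to -100.8) overlapped, while air libraries lay between 95.5 and 121.4. The second component held 10.6% and separated the submerged days. Day 1 libraries lay at -23.7, -91.4 and -86.2 (replicates 1 to 3) and day 2 libraries at 109.2, 49.2 and 40.1, without overlap. Replicate 1 of each submerged day stood apart from the other two of its day on this axis. The air libraries of the same days were mixed, at -49.1 to 45.0 on day 1 and -33.1 to 49.7 on day 2.

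**Figure D1:**
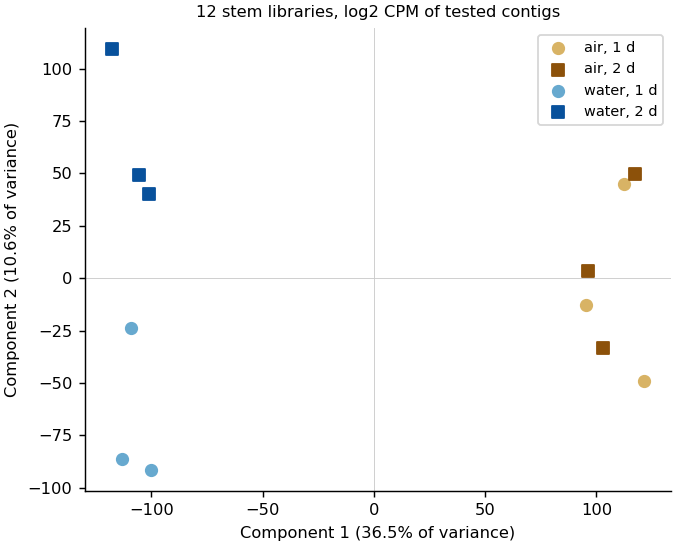
Scores of the 12 stem libraries on the first 2 principal components of log2 CPM; each point is 1 library, colour and shape give treatment and day. Submerged libraries of day 2 lie at 40.1 or more on the second component and those of day 1 at -23.7 or less, while air libraries of both days overlap.

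Between day 1 and day 2 under water, 872 of 53919 tested contigs (1.62%) changed at an adjusted p under 0.05 in edgeR's quasi-likelihood test. Of these, 448 (0.831% of those tested) were higher and 424 (0.786%) lower on day 2. The median log2 change was 1.07 among the higher contigs (quartiles 0.78 and 1.52) and -0.98 among the lower (quartiles -1.38 and -0.70). A fitted change of at least 2-fold was seen in 245 higher and 200 lower contigs, and one of at least 8-fold in 30 and 10. In 6 higher and 4 lower contigs all 3 libraries of the day with less were without a count, so their fitted folds depend on the small constant added before the logarithm. With library totals alone as the scaling, 1111 contigs were called and 76.1% of them were higher, against 51.4% with TMM scaling, and the median log2 change of all contigs was 0.124, against -0.00462. The count depended on single libraries and on the samples in the fit: it ran from 191 (without replicate 3 of day 1) to 717 (without replicate 1 of day 1) when 1 of the 6 libraries was left out, and a replicate block in those 6 libraries alone left 2.

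The days did not overlap between libraries in 447 of the 448 higher and 423 of the 424 lower contigs. The same libraries made these calls, so this separation was nearly fixed by the call and is a description only. Among all tested contigs the submerged days were without overlap in 13380 (24.8%), against 4941 (9.16%) between the same days in air. By identifier, the 448 higher contigs formed 415 runs of consecutive numbers and the 424 lower contigs 387, so some calls were neighbours in number. How many neighbours a random choice of contigs would give was not tested. Calls were drawn more from well covered contigs, with 0.525% called below a mean log2 CPM of 2 and 4.32% at 6 or above. In the lowest class higher contigs outnumbered lower (108 and 44), and in the top class the reverse held (32 and 73). Median contig length was 1301 bases among the higher and 1228 among the lower contigs, against 1034 in all tested. The test finds changes more easily in long and well covered contigs, and how much this sets the classes was not tested.

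**Figure D2:**
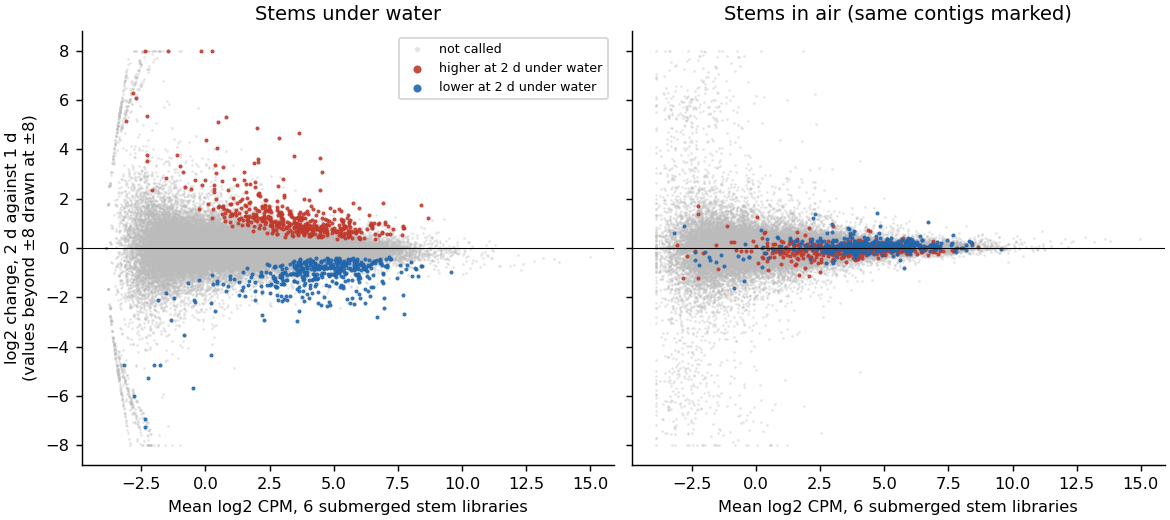
The log2 change from day 1 to day 2 (y axis) against the mean log2 CPM of the 6 submerged stem libraries (x axis), under water on the left and in air on the right, 1 point per tested contig. The 448 contigs higher (red) and 424 lower (blue) under water lie close to 0 in air, where none was called.

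The same day in air called 0 contigs (0.0%) with edgeR. An unadjusted p under 0.05 was reached by 1288 contigs in air and by 6962 under water, of 53919 tested. With no change at all a share near 0.05 would reach it. DESeq2 called 40 in air and limma-voom 0. The 448 contigs that rose under water had a median log2 change of -0.06 in air, and 164 of them (36.6%) were above 0. The 424 that fell under water had a median of 0.08 in air, with 287 (67.7%) above 0. Over all tested contigs the air median was 0.01, with 51.0% above 0. The median shifts of both sets in air thus pointed away from their direction under water.

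The difference between the change under water and the change in air was tested as an interaction, which called 71 contigs (0.132%), 47 of them more positive under water and 24 more negative. An unadjusted p under 0.05 was reached by 5176 of 53919 contigs. This count depended on single libraries: without replicate 1 of the day 1 air stems it was 8, and without replicate 1 of the submerged day 1 stems it was 104.

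Summed over a set, the levels show where each day stood against air. The stem libraries chose the sets, so their sums are a description. The contigs that rose summed to 7597 ± 974 CPM on day 1 under water and 14964 ± 801 CPM on day 2 (SD, n = 3 libraries). In air the same contigs summed to 12237 ± 329 CPM and 11733 ± 314 CPM. The sum was thus below both air days on day 1 and above them on day 2, in every library. The contigs that fell summed to 25245 ± 1753 CPM on day 1 and 12757 ± 342 CPM on day 2, against 11481 ± 1097 CPM and 12143 ± 103 CPM in air. Each day 1 library of this sum lay above every air library, and on day 2 the libraries (12374 to 13031 CPM) overlapped the air range (10464 to 12644 CPM).

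**Figure D3:**
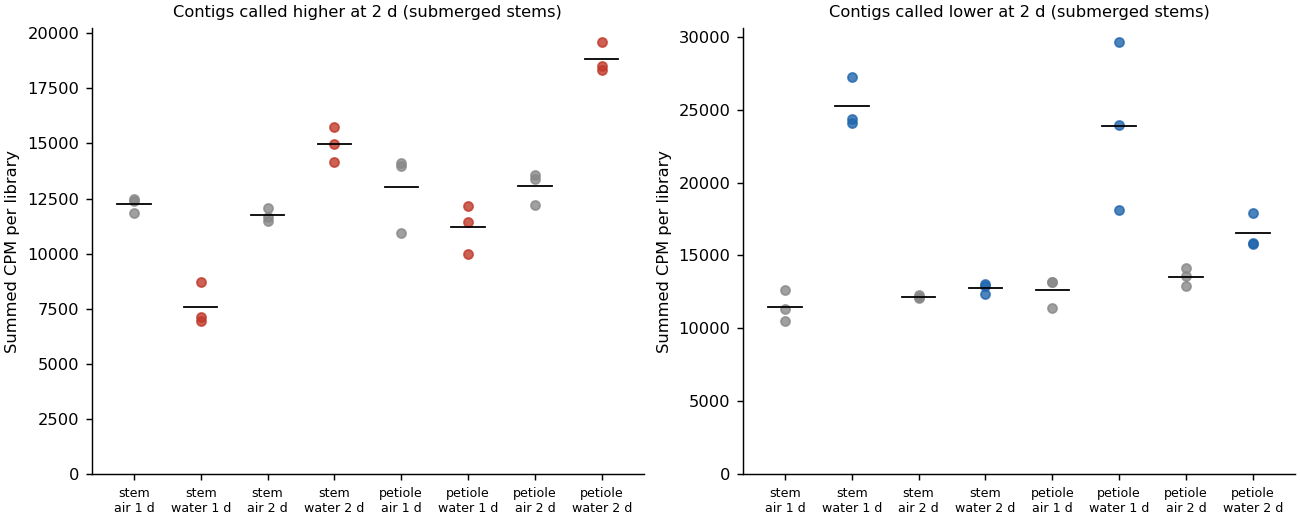
Summed CPM per library of the 448 contigs higher (left) and 424 lower (right) on day 2 in submerged stems, for the 8 groups of the series; points are libraries, bars are means of 3. In stems the higher set moved from 7597 to 14964 CPM under water and the lower set from 25245 to 12757 CPM.

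Contig by contig, the mean on each submerged day was placed against the range of the 6 air stem libraries. Of the 448 contigs that rose, 279 (62.3%) were below that range on day 1, and on day 2 88 (19.6%) were below and 252 (56.2%) above it. Of the 424 that fell, 335 (79.0%) were above the air range on day 1, and on day 2 218 (51.4%) were still above and 129 (30.4%) were below. Over all tested contigs 24.8% were below and 24.5% above on day 1, and 25.4% and 26.4% on day 2. Most risers were below the air range on the first day and most were above it on the second, while most fallers were above it on both days. The same submerged libraries chose the sets, so these positions are partly built in and are a description. In petioles, which did not choose the sets, 42.6% of risers were below the petiole air range on day 1 (18.2% of all tested). On day 2 56.0% were above it (27.7% of all). Petiole fallers were above it in 68.6% on day 1 and 56.8% on day 2 (24.6% and 27.7% of all). The fitted difference between submerged and air stems, which shares libraries with the change between days, had a median log2 of -0.61 on day 1 and 0.43 on day 2 for the risers, and of 1.20 and 0.26 for the fallers.

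The contig with the largest fitted rise among those at or above a mean log2 CPM of 3 and with days that did not overlap was GEMC01028823.1, of 872 bases. Its level was 7.02, 1.14 and 1.21 CPM on day 1 and 135, 73.2 and 36.8 CPM on day 2 (replicates 1 to 3). Day 2 libraries were all far above day 1 libraries, and replicate 1 was the highest of each day. Air stems had 5.35, 1.05 and 5.13 CPM on day 1 and 9.14, 1.52 and 3.31 CPM on day 2, the same range as submerged day 1. The log2 change was 4.68 ± 0.91 (SE, adjusted p = 0.012), and it was no longer called without replicate 1 of day 2 (adjusted p = 0.059) or without replicate 2 or 3 of day 1 (0.073 and 0.088).

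GEMC01039089.1, of 1226 bases, had 9.27, 1.08 and 1.27 CPM on day 1 and 77.5, 47.5 and 31.8 CPM on day 2. Replicate 1 was again the highest of each day. In air it stayed between 0.408 and 4.09 CPM. Its log2 change was 3.73 ± 0.89 (adjusted p = 0.037), and the call was lost in 8 of 16 alternatives, among them each fit that left out a library other than replicate 1 of day 1. In submerged petioles both contigs had at most 0.114 CPM in any library on day 1. On day 2 they reached 7.97, 4.54 and 0.249 CPM (GEMC01028823.1) and 5.51, 4.74 and 0.199 CPM (GEMC01039089.1), high in replicates 1 and 2 and near the limit of detection in replicate 3.

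The largest falls by the same rule were in contigs that were lower in every air stem library than in any submerged one. GEMC01024299.1, of 325 bases, fell from 18.2, 35.6 and 52.2 CPM to 5.88, 3.17 and 4.35 CPM, while no air stem library exceeded 0.392 CPM. Every day 2 library was still above every air library. Its log2 change was -2.98 ± 0.53 (adjusted p = 0.0071), which missed the threshold without replicate 3 of day 1 (0.052) or replicate 2 of day 2 (0.055).

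GEMC01011130.1, of 542 bases, fell from 185, 275 and 385 CPM to 46.4, 42.4 and 31.8 CPM. Air stems had 1.71, 2.31 and 1.65 CPM on day 1 and 4.03, 5.29 and 2.64 CPM on day 2, without overlap of the air days but with no call (adjusted p = 1.0). The log2 change under water was -2.81 ± 0.45 (adjusted p = 0.0042) and the interaction with treatment was -3.87 ± 0.66 (adjusted p = 0.023).

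GEMC01024297.1, of 1848 bases and close in number to GEMC01024299.1, led the falls among the interaction calls of that level together with GEMC01011130.1. It went from 457, 528 and 660 CPM on day 1 to 97.6, 69.7 and 88.0 CPM on day 2, and its 6 air stem libraries lay between 4.08 and 4.74 CPM. The fall left it still at 19.8 times its air level (log2 4.31 ± 0.33 on day 2, after 6.95 ± 0.37 on day 1). The change between days was -2.69 ± 0.30 (adjusted p = 0.00049) and the interaction -2.65 ± 0.43 (adjusted p = 0.019). Whether the 2 contigs with close numbers belong to 1 gene was not tested.

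The 2 largest rises among the interaction calls at or above a mean log2 CPM of 3 began below air. GEMC01017346.1, of 921 bases, had 6.39, 5.17 and 4.36 CPM on day 1 and 11.8, 22.4 and 14.3 CPM on day 2, against 17.6, 16.7 and 19.7 CPM and 15.2, 15.2 and 15.9 CPM in air. Every day 1 library was under every air library, and the day 2 libraries spread on both sides of the air values. The log2 difference from air went from -1.76 ± 0.21 to 0.07 ± 0.21, the change between days was 1.61 ± 0.21 (adjusted p = 0.0013) and the interaction 1.83 ± 0.30 (adjusted p = 0.019).

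GEMC01016520.1, of 771 bases, had 9.43, 6.34 and 7.45 CPM on day 1 and 24.4, 16.8 and 23.6 CPM on day 2. Its air libraries held 15.7 to 23.9 CPM over both days, and every day 1 library was below that range. On day 2 replicates 2 and 3 were within it and replicate 1 was above. The change between days was 1.48 ± 0.24 (adjusted p = 0.0046) and the interaction 1.74 ± 0.34 (adjusted p = 0.045), which was lost in 12 of 22 alternatives. The interaction call was also lost in 12 of 22 alternatives for GEMC01011130.1 (adjusted p from 5.2e-06 to 0.45) and in 7 of 22 for GEMC01017346.1 (1.2e-05 to 1.0) and GEMC01024297.1 (2.3e-06 to 0.49).

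**Figure D4:**
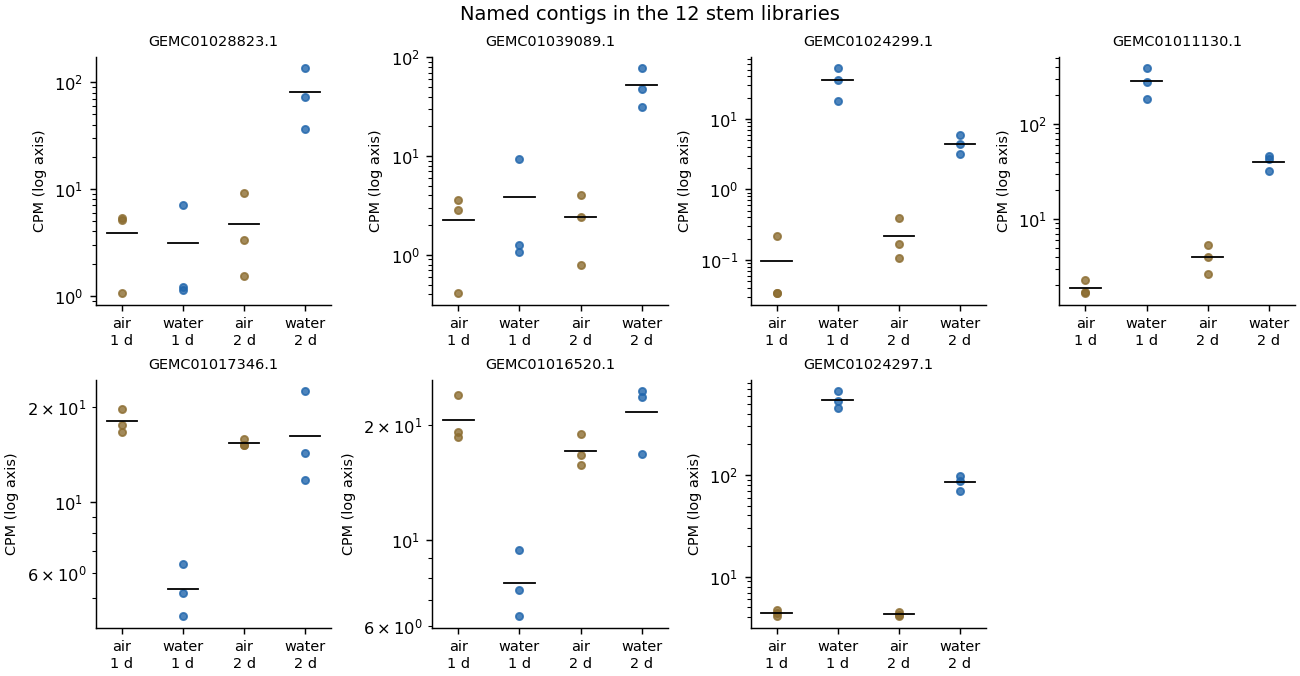
CPM of the 7 named contigs in the 12 stem libraries on log axes, by treatment and day; points are libraries and bars the means of 3. The 2 contigs with the largest rises were above the air range in every day 2 library, and GEMC01039089.1 also in replicate 1 of day 1. Another 3 contigs fell from high levels without reaching air. GEMC01017346.1 and GEMC01016520.1 were below all air libraries on day 1, while on day 2 their libraries spread around or within the air range.

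Submerged petioles gave the same comparison in libraries outside the stem contrast, although they shared the filter, scaling and estimate of spread with it. There 912 contigs (1.69%) changed between the days, 526 higher (0.976%) and 386 lower (0.716%). Of the 448 contigs that rose in stems, 435 (97.1%) had a positive change in petioles, with a median log2 of 0.71, and 176 (39.3%) were called higher and 0 lower. Of the 424 that fell in stems, 406 (95.8%) had a negative change, with a median of -0.46, and 63 (14.9%) were called lower and 0 higher. Over all tested contigs the petiole median was -0.02, with 48.0% above 0. Stem calls were 0.831% (higher) and 0.786% (lower) of all tested contigs. The shared calls were 33.5% of the petiole contigs that rose and 16.3% of those that fell. Their numbers moved with the processing, with the sets called anew each time: the 176 ran from 51 to 195 and the 63 from 20 to 70 without 1 library, DESeq2 gave 496 and 251, library totals alone gave 40 of the shared fallers, and a fold bound of 2 gave 0 of each.

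Read the other way, the 526 contigs that rose in petioles had a median log2 change of 0.68 in stems, and 499 (94.9%) were positive there. The 386 that fell in petioles had a stem median of -0.42, and 329 (85.2%) were negative. Over all tested contigs the stem median was -0.00462. Of the 53007 contigs that petioles did not call between the days, 26013 were positive in stems. The test of the difference between the tissues called 0 contigs (0.0%) with edgeR and 0 with limma-voom, while DESeq2 called 131. In edgeR 2904 of 53919 contigs had an unadjusted p under 0.05. A share near 0.05 would do so with no difference at all, though the air stem comparison in the same fit reached only 1288. With 3 libraries per group, the lack of edgeR calls cannot show that the tissues changed alike. The petiole calls were sensitive to the samples in the fit: with the 6 submerged petiole libraries alone edgeR called 0, and without replicate 3 of day 1 it called 2580.

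**Figure D5:**
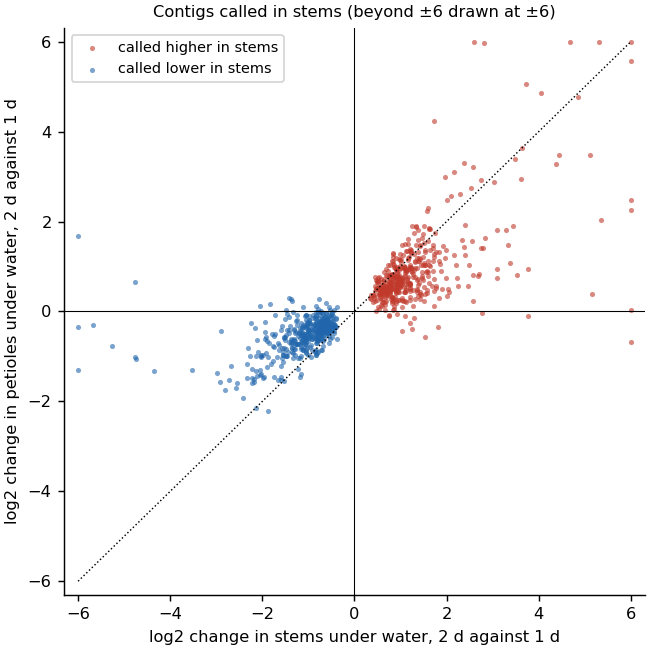
The log2 change from day 1 to day 2 under water in petioles (y axis) against that in stems (x axis) for the 872 contigs called in stems; the dotted line marks equal change. In petioles 435 of 448 risers lie above 0 and 406 of 424 fallers below 0.

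The petioles also showed how the stem contigs stood against air, in libraries outside the stem comparison. On day 1, submergence raised 7266 contigs (13.5%) and lowered 5814 (10.8%) in petioles. Of the contigs that later fell in stems, 276 (65.1%) were raised in petioles on day 1 and 45 (10.6%) lowered. Of those that rose in stems, 160 (35.7%) were lowered and 84 (18.8%) raised. On day 2, when 8811 contigs (16.3%) were raised and 9252 (17.2%) lowered in petioles, the risers were raised in 210 cases (46.9%) and lowered in 82 (18.3%), and the fallers raised in 204 (48.1%) and lowered in 97 (22.9%).

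Since well covered contigs are called more often, the shares were also taken among contigs at or above a mean log2 CPM of 3. On day 1 in petioles 23.2% of all 17959 such contigs were raised and 15.6% lowered. The 339 fallers of that level were raised in 70.5% and lowered in 9.73%. The 256 risers were lowered in 34.4% and raised in 21.5%. On day 2 27.2% of all such contigs were raised and 24.7% lowered. The risers were raised in 50.4% and lowered in 15.6%, and the fallers raised in 52.2% and lowered in 20.9%. Risers raised on day 1, and risers and fallers lowered on day 2, thus exceeded the share of all contigs only without the limit on level. Sorted by the petioles over contigs of every level, 3.80% of those raised there on day 1 fell in stems on day 2 and 1.16% rose. Of those lowered, 2.75% rose and 0.774% fell. Of the 40839 that petioles did not call on day 1, 0.500% rose and 0.252% fell in stems. Over all tested contigs 0.831% rose and 0.786% fell. The petiole classes were not matched for level, and how much coverage sets these shares was not tested.

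In petioles too the summed level of the risers was higher and that of the fallers lower on day 2, with other positions against air. The risers summed to 11197 ± 1105 CPM on day 1 and 18819 ± 679 CPM on day 2 under water, against 13013 ± 1788 and 13058 ± 726 CPM in air (SD, n = 3). The fallers summed to 23897 ± 5754 CPM on day 1 and 16526 ± 1205 CPM on day 2, against 12601 ± 1027 and 13532 ± 638 CPM in air. The day 1 petiole libraries of this sum ran from 18121 to 29628 CPM, and all were above the day 2 libraries, which in turn (15791 to 17916 CPM) were above every petiole library in air. The risers of day 1 (9993 to 12165 CPM) overlapped the petiole libraries of day 1 in air (10950 to 14104 CPM).

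Among the named contigs, GEMC01017346.1 rose in petioles by nearly the stem amount, 1.58 ± 0.21 (adjusted p = 0.0012), and GEMC01016520.1 had 0.87 ± 0.25 (adjusted p = 0.078). The fallers had smaller fitted changes in petioles than in stems, at -1.21 ± 0.29 (adjusted p = 0.038) for GEMC01024297.1, -1.76 ± 0.43 (adjusted p = 0.045) for GEMC01011130.1 and -1.37 ± 0.50 (adjusted p = 0.16) for GEMC01024299.1. The 2 largest risers had larger fitted changes in petioles, at 6.14 ± 1.36 (adjusted p = 0.028) for GEMC01028823.1 and 5.05 ± 1.21 (adjusted p = 0.04) for GEMC01039089.1. Their petiole levels on day 1 were near the limit of detection. None of these differences between the tissues passed its own test. The contigs were chosen for large changes in stems, so sizes in the 2 tissues were not compared on equal terms.

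The changed contigs held stem-rich and petiole-rich transcripts in like numbers. In air, 5402 contigs (10%) were higher in stems than in petioles and 5225 (9.69%) lower. Of the risers 93 (20.8%) were stem-rich and 100 (22.3%) petiole-rich, and of the fallers 74 (17.5%) and 78 (18.4%). The median stem against petiole difference was 0.01 for the risers and 0.02 for the fallers, against 0.07 over all tested contigs. At or above a mean log2 CPM of 3, 23.0% of the risers and 19.2% of the fallers were stem-rich, against 17.6% of all contigs of that level.

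A few measures of the libraries were compared between the days. The 100 most abundant contigs took 31.3 ± 2.58% of the TPM (transcript abundance adjusted for length) on day 1 under water and 27.0 ± 0.814% on day 2, without overlap (exact permutation test, two-sided p = 0.1, the smallest that 3 against 3 allows). The TMM scaling factors were 0.973 to 1.04 on day 1 and 1.08 to 1.12 on day 2 (exact permutation p = 0.1). Contigs with a count numbered 57701 ± 786 and 56997 ± 827, and here the days overlapped (exact permutation p = 0.4). The part of these measures in the contig changes was not tested.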

How the data were processed

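Stems and petioles under water or in air for 1 or 2 days gave 24 libraries in 8 groups of 3. Per the labels' protocols, libraries were made with the BrAD-seq method without strand and sequenced in pairs of 100 bp, and per the submitters' processing notes the tools included kallisto, edgeR and limma. Their versions and the transcriptome were not given in the sources used here. The deposited files give, per the file headers, an estimated count and a TPM value for each of 80741 contigs. The authors' estimated counts are not normalised, and the deposited TPM values, adjusted for length, entered only the share of the top 100 contigs.

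Estimated counts were rounded to whole numbers here. Of the contigs, 63905 had a count and 53919 passed edgeR's filterByExpr (minimum count 10, minimum total 15), which held 99.92 to 99.95% of the counts of each library. Library totals ran from 17617430 to 48928331. edgeR 4.0.16 (R 4.3.3) fitted 8 group means to all 24 libraries with TMM scaling (glmQLFit, glmQLFTest), with a biological coefficient of variation of 0.374. Two-sided p-values were corrected with the Benjamini-Hochberg procedure across the tested contigs, and SE were derived from the F statistic. CPM used TMM-scaled totals. The fit was tested on counts simulated from the fitted model, which cannot show where that model departs from the data. Of 100 well covered contigs changed 2-fold 60 were called, and of 100 changed 4-fold 96, with 6 false calls in all. Counting limits cover counting error only.

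Named contigs were the 2 largest rises and 2 largest falls per contrast, called, at or above a mean log2 CPM of 3 and, for the change between days, no overlap of the days. For the petiole and air contrasts and the tissue difference none were named. The comparison, the sets and the lists were chosen with earlier results of these data known. Lists of genes and cell type markers were not tested because the files pair no names with the contigs. Alternatives were other scalings, filters, DESeq2 1.42.0, limma-voom 3.58.1, the compared groups alone, a replicate block, a fold bound and each library left out.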

Additional observations from a re-analysis of the deposited data

Results flagged for a closer look

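The change from day 1 to day 2 in stems differed between water and air in 71 contigs by the interaction test. Among these, the interaction was 1.83 (log2) for GEMC01017346.1 and 1.74 for GEMC01016520.1, which rose under water and were not called in air. It was -3.87 for GEMC01011130.1 and -2.65 for GEMC01024297.1, which fell under water and were not called in air.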

How the results depend on the processing

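No contig called in submerged stems was called in the opposite direction under any alternative, and no named contig changed sign. Of 872 calls between the submerged stem days, 704 were kept among 1111 with library totals alone, 866 among 2296 with DESeq2, 814 among 1405 with limma-voom and 537 among 1048 with the compared groups only, of which 406 were higher and 642 lower. The labels do not say whether same-numbered libraries share plants, plate or day. Over 17744 contigs the deviations of same-numbered submerged stem libraries correlated at 0.0369, 0.138 and 0.0807. Each day 1 library correlated best with its own number, a hint from the data and not the design. For replicate 1 the margin was small (0.0312 with another number). In air stems replicates 1 and 2 of day 1 correlated best with another number (0.279 and 0.357), and replicate 3 with its own (0.0349). A replicate block gave 943 calls and kept 802. A replicate block in the 6 compared libraries alone, added after seeing the data, left 2, and a fold bound of 2 left 4. Without 1 library the count ran from 191 (without replicate 3 of day 1) to 717 (without replicate 1 of day 1). It was 288 without replicate 2 of day 1, and 317, 274 and 369 without replicates 1, 2 and 3 of day 2. In air stems DESeq2 called 40 and the fits without 1 library 0 to 3. The 71 interaction calls became 282 with library totals alone (88.7% of them positive, against 66.2%), 118 with the stricter low-count filter, 917 with DESeq2, 354 with the compared groups only, 89 with the replicate block, 119 with the block in the compared groups only and 0 with the fold bound, and 8 to 104 without 1 library. Leaving out any of the 12 stem libraries other than replicate 1 of submerged day 1 and replicate 3 of air day 1 moved that count by over 1.5 times. The 912 petiole calls became 3113 with DESeq2, 0 with the compared groups only and with the block in them, 836 with the replicate block, 7 with the fold bound and 237 to 2580 without 1 library, each omission but that of replicate 3 of submerged day 2 moving it by over 1.5 times. The tissue difference gave 131 calls with DESeq2, 0 with the replicate block and 0 to 10 without 1 library. The cause of these moves was not tested. Across the alternatives, 90.9 to 100.0% of the contigs called higher in stems were positive in petioles and 88.2 to 100.0% of those called lower were negative. For the higher contigs 100.0% came only from the fold bound (3 contigs) and the block in the compared groups only (2 contigs). For the lower contigs it came from the fold bound (1 contig) and the fit without replicate 2 of submerged stem day 1 (153 contigs). Depth limits contigs near 3 counts per library.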

Other observations

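The 4 contigs whose change between the submerged stem days exceeded 2-fold under a test against that bound were GEMC01024297.1, GEMC01011196.1, GEMC01061341.1 and GEMC01061347.1, the last 3 chosen after their values were seen. GEMC01011196.1, of 425 bases, rose from 1.58, 1.05 and 0.742 CPM to 11.7, 13.2 and 12.1 CPM, against 4.75 to 8.78 CPM in air stems. GEMC01061341.1, of 3039 bases, rose from 0.882, 0.856 and 1.08 CPM to 10.4, 8.38 and 5.31 CPM, against 9.07 to 19.5 CPM in air.

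GEMC01061347.1, of 2780 bases, had a rounded count of 0 in each submerged stem library of day 1 and 18.5, 8.13 and 10.2 CPM on day 2. Air stems had 36.6, 30.7 and 43.4 CPM on day 1 and 36.2, 29.6 and 35.7 CPM on day 2, above every submerged library. Against a limit of 3 counts per day 1 library (0.0951 CPM) the day 2 mean of 12.2 CPM was at least 129-fold higher. Submerged petioles had 0.58, 8.19 and 1.14 CPM on day 1 and 16.0, 14.7 and 23.5 CPM on day 2, a log2 change of 2.48 ± 0.60 (edgeR, adjusted p = 0.044).

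The 2 contigs still called with the replicate block in the 6 submerged stem libraries alone were GEMC01039088.1 and GEMC01064988.1, also chosen after their values were seen. GEMC01039088.1, of 1371 bases and next in number to GEMC01039089.1, rose from 14.5, 6.37 and 5.16 CPM to 113, 64.1 and 46.4 CPM, against 5.1 to 9.85 CPM in air stems. GEMC01064988.1, of 2857 bases, had at most 0.0317 CPM on day 1 and 8.05, 34.0 and 21.0 CPM on day 2. Its air libraries ran from 0.333 to 23.7 CPM, with replicate 3 low on both days.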
